A study of Rattus norvegicus with 6 samples.

Results

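The genes described here make and release the vesicles of neurons and other secretory cells: the SNARE proteins, which pull a vesicle onto its target membrane, and the proteins that time, dock, fill or recycle it. They were chosen by symbol, as every gene named Syt, Stx, Vamp, Snap, Cplx, Rims or Stxbp with a number, together with Syn1, Syn2, Syn3, Sv2a, Sv2b, Sv2c, Syp, Bsn, Pclo, Scg2, Chga and Chgb. The rule found 71 of the 18696 genes for which a group average was deposited. RNA came from dorsal root ganglia, which hold the cell bodies of sensory neurons, of rats of the SD strain. In the SNI group (3 libraries) a spared nerve injury was made: of the branches of the sciatic nerve, the common peroneal and the tibial were ligated and cut, and the sural was left whole. In the sham group (3 libraries) the sciatic nerve and its branches were exposed and the skin was closed again. No drug or genetic change is named for either group. The sources used here do not give time after surgery, spinal level, side, sex or age, nor whether each library of a group is a different rat. The p-values therefore measure the spread between these libraries, which may be technical.

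In a nerve terminal, a vesicle SNARE (a Vamp protein) zips together with a syntaxin and Snap25 on the cell membrane. Munc18 proteins hold the syntaxin ready, complexins clamp the assembled complex, and synaptotagmins sense calcium and trigger fusion. Sensory neurons use this machinery for fast glutamate release from small vesicles and for slower release of neuropeptides from dense-core vesicles, which the granins help to form. In a bulk ganglion library, fewer cells of a type and less RNA per cell cannot be told apart.

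Expression was given in TPM (transcripts per M transcripts, corrected for length), so levels of different genes can be set side by side. Group averages covered all 71 members, and values per library covered 14 of them (19.7%, against 8.71% of all genes with averages). The sources used here do not say how the genes of the per-library table were chosen. Shares of genes called and adjusted p-values therefore refer to that selection alone. Summed over genes, the average read counts came to 18.6 M in SNI and 18.6 M in sham (M, 1e6), and the depth of single libraries is unknown. The labelled tissue was checked on neuronal markers, with Uchl1 and Tubb3 averaging 6178 and 6108 TPM in SNI, against 6428 and 4726 TPM in sham. Over the 14 sensory neuron markers, 6 had the higher average in SNI, none was at 0, and they summed to 28342 TPM in SNI and 33155 TPM in sham. Nefl, Nefm and Nefh, the neurofilament subunits, were the 3 past 1.5-fold lower, at 4497, 3058 and 2877 TPM in SNI, against 7588, 4804 and 4485 TPM in sham. The lower sum in SNI came from these 3 genes. The remaining sensory neuron markers together summed to more in SNI than in sham. Of the 3 markers with values per library, Scn10a, a sodium channel of nociceptors, was called lower with limma (averages of 169.6 TPM in SNI and 220.2 TPM in sham), and Calca and Elavl4 were not called. The part of these neuronal markers in the members' values was not tested. The 3 markers, of which Calca was the most abundant at averages of 1182 TPM in SNI and 1157 TPM in sham, summed to between 1450 and 1501 TPM in SNI libraries and between 1472 and 1507 TPM in sham libraries.

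More vesicle release genes had a lower than a higher average in injured ganglia, many of them by little, and a few stood well apart. Of the 14 members with values per library, 9 fell, 2 rose and 3 did not pass the test (limma on log2(TPM + 1), Benjamini-Hochberg adjusted p under 0.05 over all 1596 genes tested). Of all genes tested, 29.2% were called lower and 32.0% higher, that is 466 and 510 genes, and after quantile normalization 608 and 402. The median log2 fold change was −0.21 over the 14 members and 0.01 over all genes tested. The 9 members that fell lay lower in every SNI library than in any sham library, and the 2 that rose lay higher in every one, where 31.3% and 35.3% of all genes tested showed such a lack of overlap downward and upward. Leaving out 1 library at a time gave between 7 and 10 members called lower and 2 called higher. In the group averages, 65 members reached a mean of 1 TPM, and 42 of these were lower in SNI and 23 higher, against 47.1% of all 14683 genes past that mean being lower. Their median log2 ratio was −0.05, beside 0.02 over all genes. Between the averages, 31 of the 65 (47.7%) differed by less than 10%, where 41.7% of all genes did. Of these 65 members, 2 were at least 1.5-fold higher (Syt4 and Stx11) and 3 at least 1.5-fold lower (Syt3, Syt12 and Chga). Of all 14683 genes, 996 (6.78%) and 387 (2.64%) were. With the ratios centred on the median of all genes, Vamp1 joined the lower ones. Syt4 and Stx11 were also the 2 members in the authors' deposited table of higher genes, which held 3.63% of genes with averages. None of the 71 was in the lower one, which held 0.695%.

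**Figure D1:**
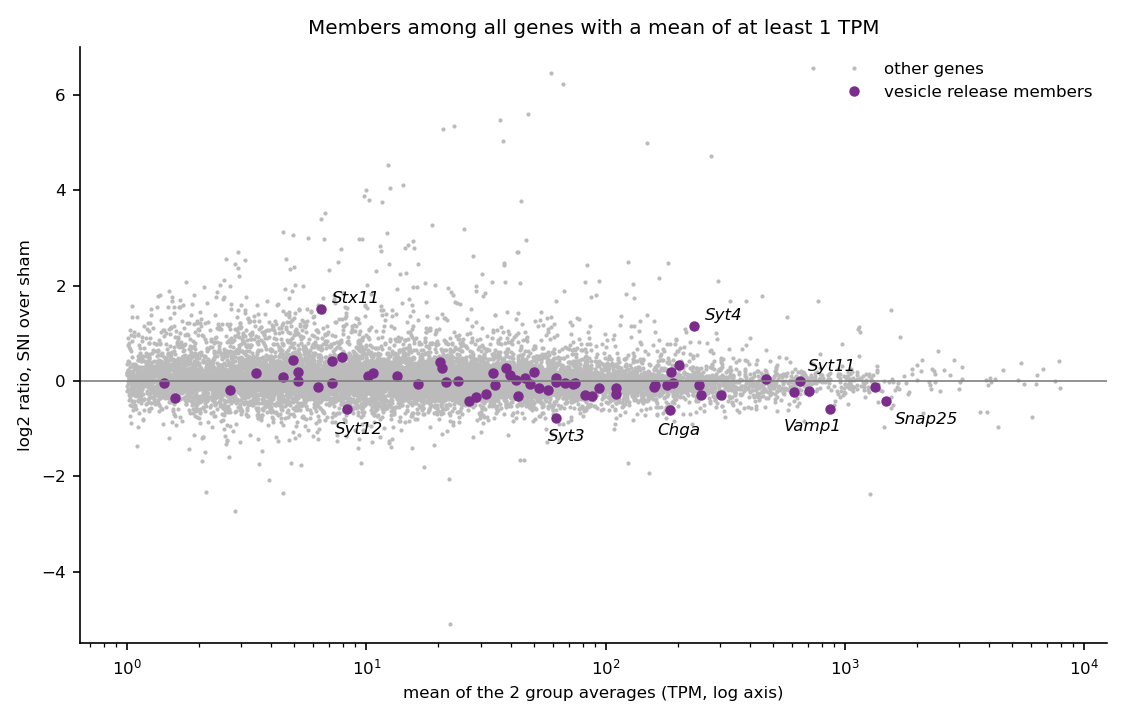
Ratio of group averages (log2, SNI over sham, with 1 TPM added to each) against the mean of both averages (TPM, log axis) for genes whose mean is 1 TPM or more; purple points are the 65 vesicle release members. Most members lie close to 0, with Syt4 and Stx11 above and Syt3, Syt12, Chga and Vamp1 the lowest of the members.

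Promoter sequences are printed for Scg2, Syn1 and Vamp1, because these are the members whose promoter holds the full cAMP response element, TGACGTCA. The windows run from 250 bases before to 50 bases after the gene's start, from RefSeq on the GRCr8 build, with the element in capitals. It begins 123 bases before the start in Scg2, 190 before in Syn1 and 71 before in Vamp1.
Scg2, chr9:88256817-88257116, minus strand: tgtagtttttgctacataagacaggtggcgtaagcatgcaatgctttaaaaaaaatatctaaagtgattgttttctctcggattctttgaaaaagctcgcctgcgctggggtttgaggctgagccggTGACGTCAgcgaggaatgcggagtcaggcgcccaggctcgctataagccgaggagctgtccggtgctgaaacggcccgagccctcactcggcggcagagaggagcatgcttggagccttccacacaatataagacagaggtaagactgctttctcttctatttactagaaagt
Syn1, chrX:3725495-3725794, plus strand: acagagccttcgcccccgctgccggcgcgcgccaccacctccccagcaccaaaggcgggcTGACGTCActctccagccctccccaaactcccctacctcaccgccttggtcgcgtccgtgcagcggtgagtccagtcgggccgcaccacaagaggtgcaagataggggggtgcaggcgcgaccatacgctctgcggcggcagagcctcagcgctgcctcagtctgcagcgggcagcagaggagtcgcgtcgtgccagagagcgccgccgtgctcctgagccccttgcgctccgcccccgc
Vamp1, chr4:159698644-159698943, plus strand: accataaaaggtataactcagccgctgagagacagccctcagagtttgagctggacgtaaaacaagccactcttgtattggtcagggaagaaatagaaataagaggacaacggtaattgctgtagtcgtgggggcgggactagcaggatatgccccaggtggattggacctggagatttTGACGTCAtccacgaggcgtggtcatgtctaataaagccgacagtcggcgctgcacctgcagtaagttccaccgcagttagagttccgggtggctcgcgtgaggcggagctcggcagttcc

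RefSeq promoters were matched by gene ID for 55 of the 71 members (67 windows, since some genes have more than 1 start). The cAMP response element, which reads the same on both strands, was in 3 of the 67 windows (4.48%), against 1.83% of all 33469 windows of that length. The AP-1 letters TGANTCA, searched on both strands, were in 1 of the 67 (1.49%), that of Syp, against 7.33% of all windows. The GC box GGGCGG was in 42 of the 67 on either strand (62.7%), against 33.1% of all windows. In the member windows neither of these overlapped a cAMP response element. Such matches describe letters only, and whether any factor bound there was not measured.

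Of the 4 synaptotagmins with values per library, all of them calcium sensors, 3 fell and 1 did not pass the test. Syt2, a fast sensor, had 100.12, 99.98 and 101.87 TPM in the SNI libraries, against 127.28, 112.34 and 123.54 TPM in the sham libraries. Syt2 was lower in all 3 SNI libraries than in any sham library and fell by 16.8% (log2 fold change −0.26, SE 0.05, limma adjusted p = 0.0027). For Syt9, also a fast sensor, the SNI libraries had 52.59, 54.83 and 52.7 TPM, against 61.32, 59.36 and 62.21 TPM in the sham libraries. Its groups did not overlap either, and Syt9 fell by 12.5% (log2 fold change −0.19, SE 0.05, limma adjusted p = 0.0076). Syt1, the sensor first described for synchronous release, had 103.53, 104.28 and 105.48 TPM in SNI libraries, against 122.2, 110.68 and 113.22 TPM in sham libraries. Syt1 fell by the smallest amount of the called members (log2 fold change −0.14, SE 0.05, limma adjusted p = 0.035), and the call was lost in 8 of 13 alternatives, among them leaving out any SNI library or sham replicate 1 or 3 (adjusted p between 0.055 and 0.104). Syt6 overlapped between groups at 16.1 ± 0.640 TPM in SNI and 16.9 ± 1.99 TPM in sham (SD, n = 3 each) and did not pass (limma adjusted p = 0.58).

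The remaining synaptotagmins had group averages alone, without error or test. Syt4, a form that binds calcium poorly and is known from dense-core vesicles and as an activity-induced gene, averaged 323 TPM in SNI, against 145 TPM in sham, 2.22-fold higher. Its average read counts were 11500 and 5124, so it was among the well-counted members. Syt3, a high-affinity calcium sensor, averaged 45.4 TPM in SNI, against 78.7 TPM in sham, 1.73 times as much in sham. Syt7, which is linked to slow and sustained release, averaged 73.3 TPM in SNI and 89.8 TPM in sham. Syt12 averaged 6.42 TPM in SNI and 10.2 TPM in sham. The most abundant family member, Syt11, which does not sense calcium, averaged 647 TPM in SNI and 650 TPM in sham (−0.398%). Syt5 lay nearly as close, at 66.9 and 68.5 TPM in SNI and sham. Over all 17 synaptotagmins the averages summed to 1448 TPM in SNI and 1369 TPM in sham. Within that sum Syt4 took 22.3% in SNI and 10.6% in sham. The 8 calcium-sensing members summed to 461 TPM in SNI and 552 TPM in sham, and all 7 of them with a mean of at least 1 TPM were lower in SNI. Syt4 is named here with no library values, and how much its average varied between libraries was not tested.

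**Figure D2:**
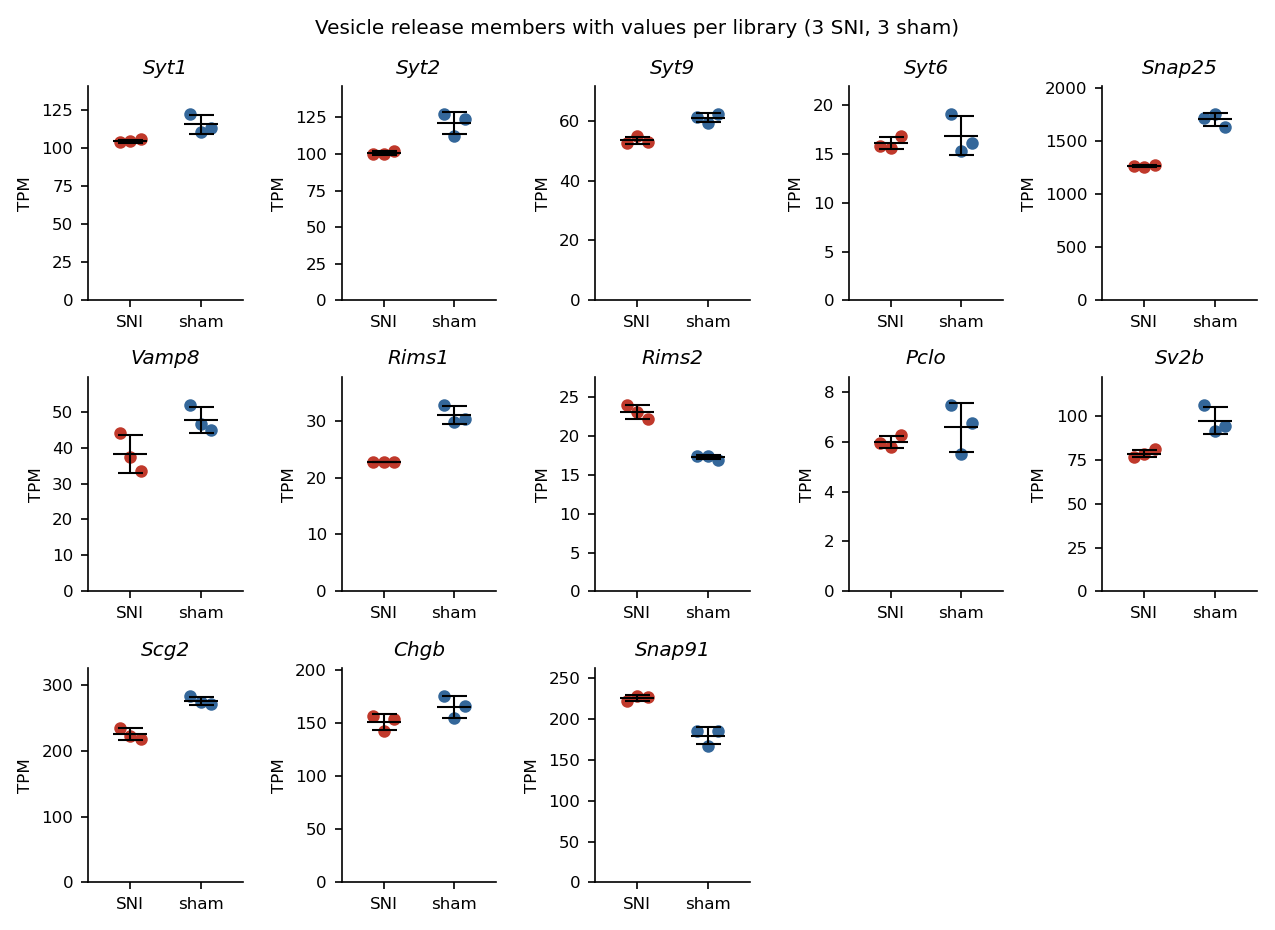
TPM in each library for 13 of the 14 members with values per library (vertical axes start at 0; red points SNI, blue points sham, black bars mean ± SD over 3 libraries). SNI points lie below all sham points for 8 genes and above them for Rims2 and Snap91, and they overlap for Syt6, Pclo and Chgb.

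On the target membrane, Snap25 fell, and 5 of the 6 plasma membrane syntaxins with a mean of at least 1 TPM had the higher average in SNI, with no test. Snap25, the neuronal SNARE that brings a pair of helices to the complex and the member with the highest mean of both averages, had 1268.3, 1262 and 1278.05 TPM in SNI libraries, against 1722.12, 1759.5 and 1641.17 TPM in sham libraries. The groups were well apart and the 3 SNI libraries nearly equal, and Snap25 fell by 25.7% (log2 fold change −0.43, SE 0.04, limma adjusted p = 1.2e-05). Its widely expressed relative Snap23 averaged 9.48 TPM in SNI and 6.39 TPM in sham, with no test, and made up 0.741% and 0.373% of the sum of both genes. Snap29 and Snap47, which serve fusion inside the cell, averaged 35.9 and 25.3 TPM in SNI, against 31.9 and 32.0 TPM in sham. Stx1a, a syntaxin of neuronal release, averaged 41.8 TPM in SNI and 34.7 TPM in sham. Stx4 and Stx3 were higher in SNI by 14.1% and 13.7%, while Stx2 averaged 73.3 TPM in SNI and 76.0 TPM in sham. The 8 syntaxins of endosomes and the Golgi all stayed within 10% between the averages, where 41.7% of all genes did, with Stx7 at 189 TPM in SNI and 195 TPM in sham and Stx12 at 156 TPM in SNI and 165 TPM in sham. Stx8 averaged 49.8 TPM in SNI and 55.0 TPM in sham.

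Stx11 differed most in proportion. This syntaxin, known for granule release in cytotoxic lymphocytes and other blood cells, averaged 10.1 TPM in SNI, against 2.89 TPM in sham, 3.48-fold higher. Its average read counts were 179 in SNI and 50.3 in sham. Stxbp2, its binding partner in those cells, averaged 5.81 TPM in SNI and 4.03 TPM in sham. All 9 macrophage markers had the higher average in SNI beside them, 7 of them by at least 1.5-fold. None was at 0, and they summed to 246 TPM in SNI and 110 TPM in sham. The 3 of these with values per library were Cd163, Mrc1 and Ptprc, and 1 was called higher and 2 were not called (limma). Their log2 ratios of averages were 0.04, 0.18 and 1.24. They summed to between 21.6 and 22.3 TPM in SNI libraries and between 15.5 and 16.8 TPM in sham libraries. The 5 erythrocyte markers summed to 4066 TPM in SNI and 1369 TPM in sham, all higher in SNI, and their 5 summed values per library ranged from 4013 to 4097 TPM in SNI and from 1253 to 1441 TPM in sham. The part of these cells in the Stx11 difference was not tested.

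Among the vesicle SNAREs, the main pair of neuronal Vamp genes differed in how far their averages lay apart. Vamp1, the form of large and motor neurons as well as many sensory neurons, averaged 694 TPM in SNI, against 1037 TPM in sham (−33.1%), with no test. Vamp2, the main form of the forebrain, averaged 473 TPM in SNI and 463 TPM in sham. Of the summed TPM of Vamp1, Vamp2 and Vamp3, Vamp1 thus held 56.4% in SNI and 66.4% in sham. Vamp8, a form of endosomes and of secretory cells outside the nervous system, had 44.02, 37.38 and 33.47 TPM in SNI libraries, against 51.84, 46.49 and 44.9 TPM in sham libraries. The highest SNI library came within 1 TPM of the lowest sham library, and Vamp8 was called lower (log2 fold change −0.32, SE 0.10, limma adjusted p = 0.018). That call was lost without SNI replicate 2, SNI replicate 3 or sham replicate 1 (limma adjusted p = 0.051, 0.075 and 0.066). The average read counts behind Vamp8 were only 94 in SNI and 116 in sham. The endosomal form Vamp4 averaged 71.1 TPM in SNI and 74.3 TPM in sham, and Vamp3 and Vamp7 also differed by less than 10% between averages.

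Stxbp5, known as tomosyn and an inhibitor of SNARE assembly, averaged 24.1 TPM in SNI and 24.2 TPM in sham, and Stxbp3, the Munc18 of many other tissues, 21.3 TPM in SNI and 21.7 TPM in sham. Cplx1, the most abundant complexin, averaged 1282 TPM in SNI and 1396 TPM in sham, and Cplx2 averaged 89.1 TPM in SNI and 98.7 TPM in sham. Both had the lower average in SNI, with no test. Cplx3 and Cplx4, known from retinal ribbon synapses, stayed under 1 TPM in both groups.

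**Figure D3:**
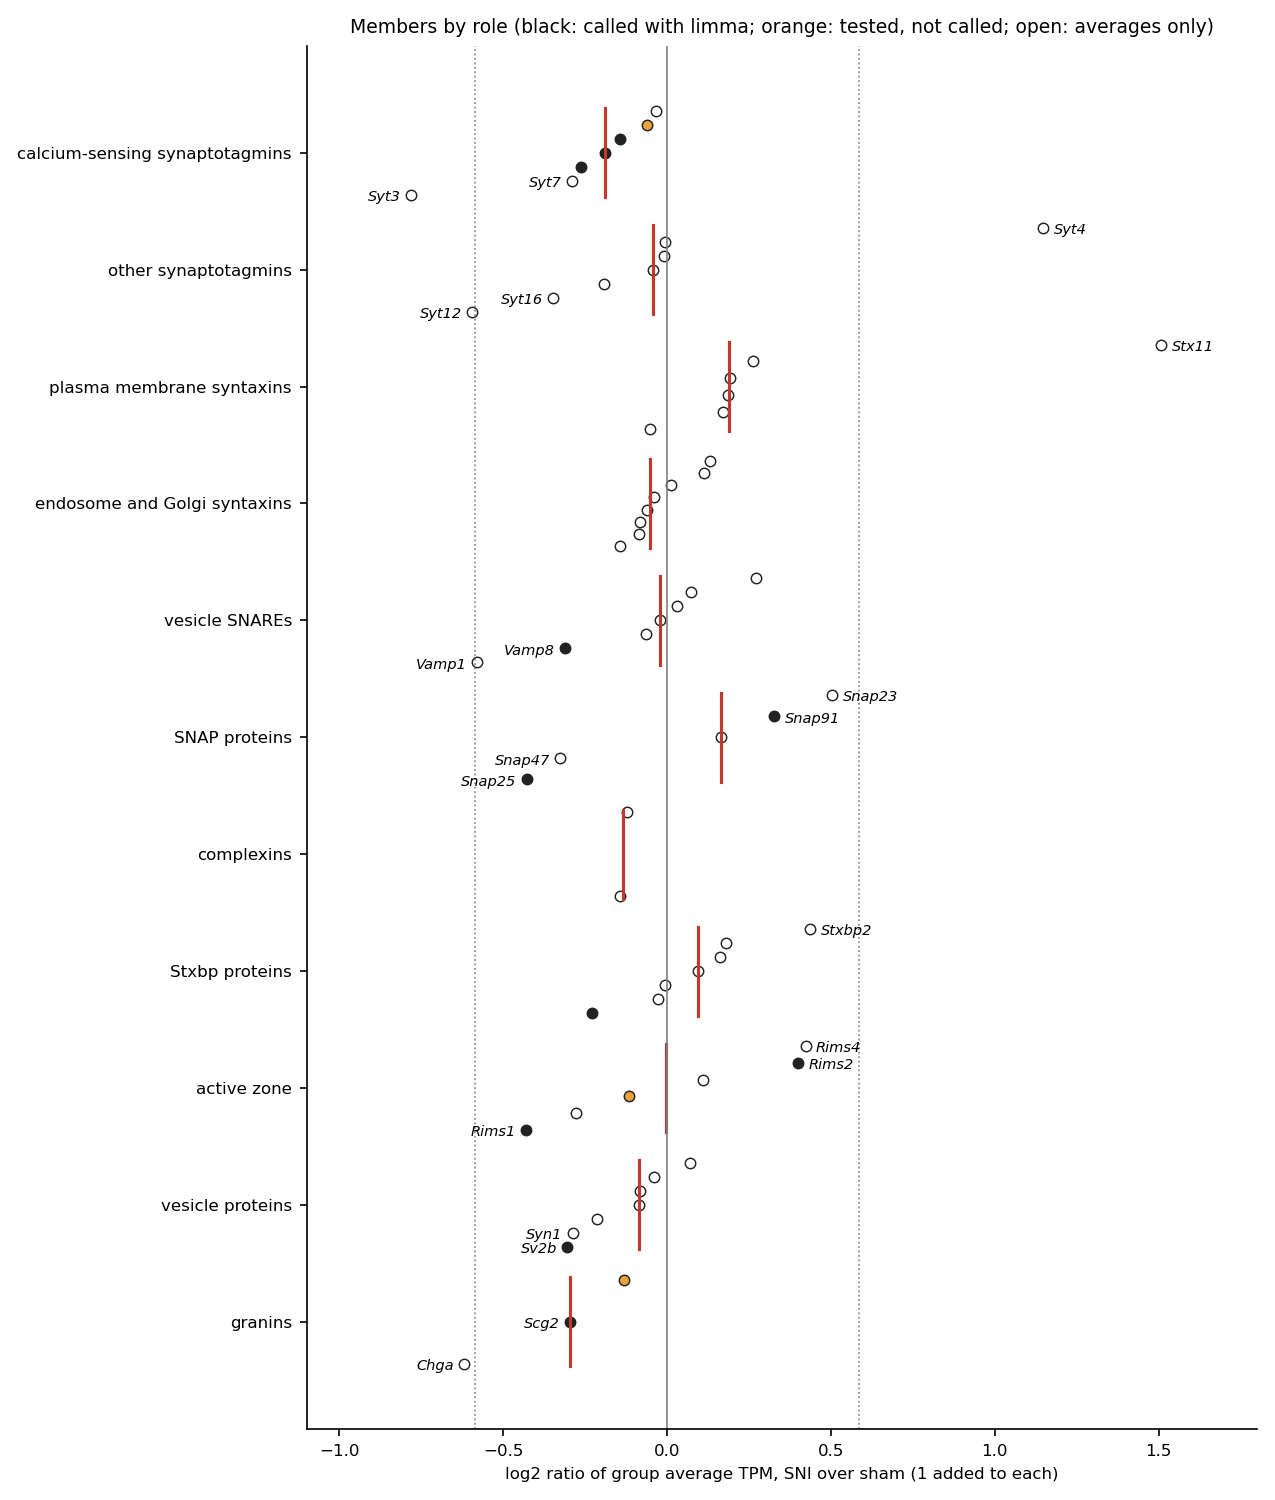
Ratio of group averages (log2, SNI over sham) for the 65 members with a mean of at least 1 TPM, in rows by role; red bars mark row medians and dotted lines a 1.5-fold difference. Granins and calcium-sensing synaptotagmins lie wholly left of 0, plasma membrane syntaxins mostly right of it, and Syt4 and Stx11 stand far to the right.

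At the active zone, the site where vesicles dock, Rims1 fell and its paralog Rims2 rose, so that their levels lay closer together in SNI than in sham. Rims1, which tethers vesicles and calcium channels, had 22.76, 22.73 and 22.65 TPM in SNI libraries, against 32.74, 29.75 and 30.28 TPM in sham libraries. Rims1 fell by 26.5% (log2 fold change −0.43, SE 0.06, limma adjusted p = 0.00015), with the SNI libraries almost identical. Rims2, whose role overlaps with that of Rims1, had 24.03, 23.16 and 22.25 TPM in SNI libraries, against 17.48, 17.48 and 16.97 TPM in sham libraries. Rims2 rose by 33.7% (log2 fold change 0.40, SE 0.06, limma adjusted p = 0.00025). In average read counts both shifts were smaller, with 1003 for Rims2 and 1043 for Rims1 in SNI, against 799 and 1331 in sham. The pair reached about the same level in SNI: Rims2 stood at 1.06, 1.02 and 0.982 times Rims1 in SNI libraries, against 0.534, 0.588 and 0.560 times in sham libraries. An exact permutation test over the 3 and 3 libraries gave a two-sided p = 0.1 for this ratio, which is the smallest value that design allows, as it did for both other ratios computed (Snap91 per Snap25 and Syt2 per Syt1). For Rims2 per Rims1 and Snap91 per Snap25 that outcome was fixed in advance, as 1 gene rose and the other fell without overlap. The test therefore adds nothing to the calls of these genes. The short paralogs Rims3 and Rims4 averaged 28.5 and 8.38 TPM in SNI, against 34.7 and 6.0 TPM in sham. Over the 4 genes the averages summed to 82.7 TPM in SNI and 88.9 TPM in sham, so their sum differed by less than the single genes did. The large scaffolds showed little difference: Bsn (bassoon) averaged 13.9 TPM in SNI and 12.8 TPM in sham. Pclo (piccolo) had 5.95, 5.77 and 6.25 TPM in SNI libraries, against 7.47, 5.52 and 6.75 TPM in sham libraries, and did not pass (log2 fold change −0.11, SE 0.10, limma adjusted p = 0.39). After quantile normalization Pclo was called lower (log2 fold change −0.36, limma adjusted p = 0.0069).

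**Figure D4:**
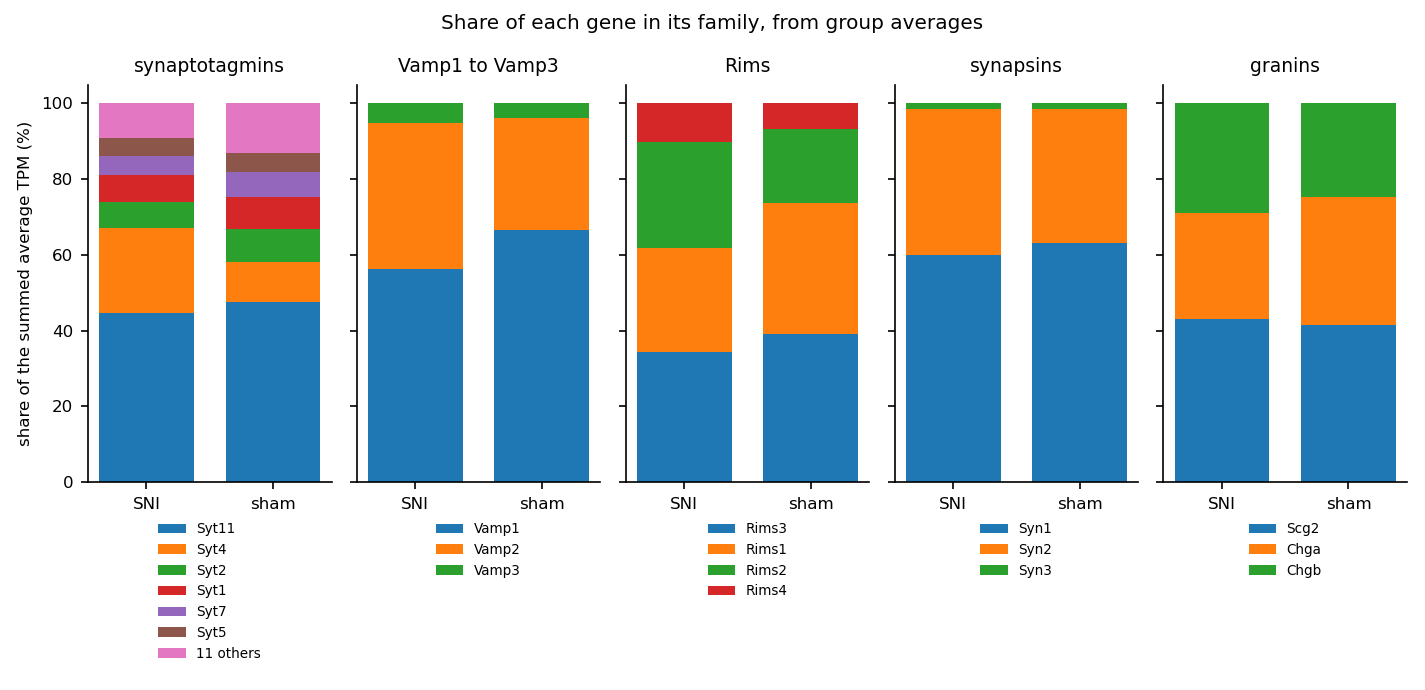
Share (%) of each gene in the summed average TPM of its family, SNI bars left of sham bars; each bar adds up to 100%. Syt4 takes a larger share of the synaptotagmins in SNI (22.3%, against 10.6% in sham), Vamp2 and Rims2 hold larger shares in SNI than in sham, and the synapsins keep nearly the same proportions.

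Of the 7 proteins of the vesicle membrane and surface, Sv2b was the 1 with values per library, and it was called. This glycoprotein of the vesicle membrane had 76.6, 78.16 and 81.03 TPM in SNI libraries, against 106.26, 91.46 and 94.2 TPM in sham libraries. It fell by 19.2% without overlap (log2 fold change −0.30, SE 0.06, limma adjusted p = 0.0026). Sv2c, the most abundant of the family in this tissue, averaged 238 TPM in SNI and 252 TPM in sham, and Sv2a averaged 47.0 TPM in SNI and 44.7 TPM in sham. Syp (synaptophysin), the classic vesicle marker, averaged 652 TPM in SNI and 756 TPM in sham. Syn1 (synapsin I), which ties vesicles into the reserve pool, averaged 272 TPM in SNI and 332 TPM in sham, and its paralog Syn2 175 TPM in SNI and 186 TPM in sham. Of the 7 genes of this group, 6 had the lower average in SNI, with a test for Sv2b alone. Snap91 carries a Snap name but is the clathrin adaptor AP180, which rebuilds vesicles after fusion. Its SNI libraries had 221.68, 228.27 and 226.64 TPM, against 185.83, 167.53 and 185.48 TPM in sham libraries, and it rose by 25.6% without overlap (log2 fold change 0.33, SE 0.05, limma adjusted p = 0.00046).

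The granins, cargo proteins of dense-core vesicles that are cut into peptides, were all lower in SNI. Scg2 (secretogranin II, the source of secretoneurin) had 234.93, 222.39 and 217.2 TPM in SNI libraries, against 283.23, 273.75 and 271.11 TPM in sham libraries. The groups did not overlap, and Scg2 fell by 18.5% (log2 fold change −0.30, SE 0.05, limma adjusted p = 0.00043). Chgb (chromogranin B) had 156.62, 142.75 and 154.47 TPM in SNI libraries, against 175.85, 154.84 and 166.18 TPM in sham libraries. One SNI library lay above the lowest sham library, and Chgb did not pass (log2 fold change −0.13, SE 0.06, limma adjusted p = 0.089), although it did without sham replicate 2 (limma adjusted p = 0.024). Chga (chromogranin A) averaged 146 TPM in SNI, against 225 TPM in sham, 1.54 times as much in sham, with no test. The 3 genes summed to 523 TPM in SNI and 667 TPM in sham. Of the chromaffin and neuroendocrine markers Pnmt averaged 0.0400 TPM in both groups.

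Across the 14 members, sham replicate 1 had the highest or joint highest sham value in 12, where it was highest in 44.6% of all genes tested. Without it, Snap25, Rims1, Rims2, Snap91, Scg2, Sv2b, Syt2 and Syt9 kept their calls. These 8 genes also passed in each of the other 12 alternatives, with Snap25 at a log2 fold change between −0.46 and −0.40. The largest adjusted p among the 8 was 0.038, for Syt9.

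**Figure D5:**
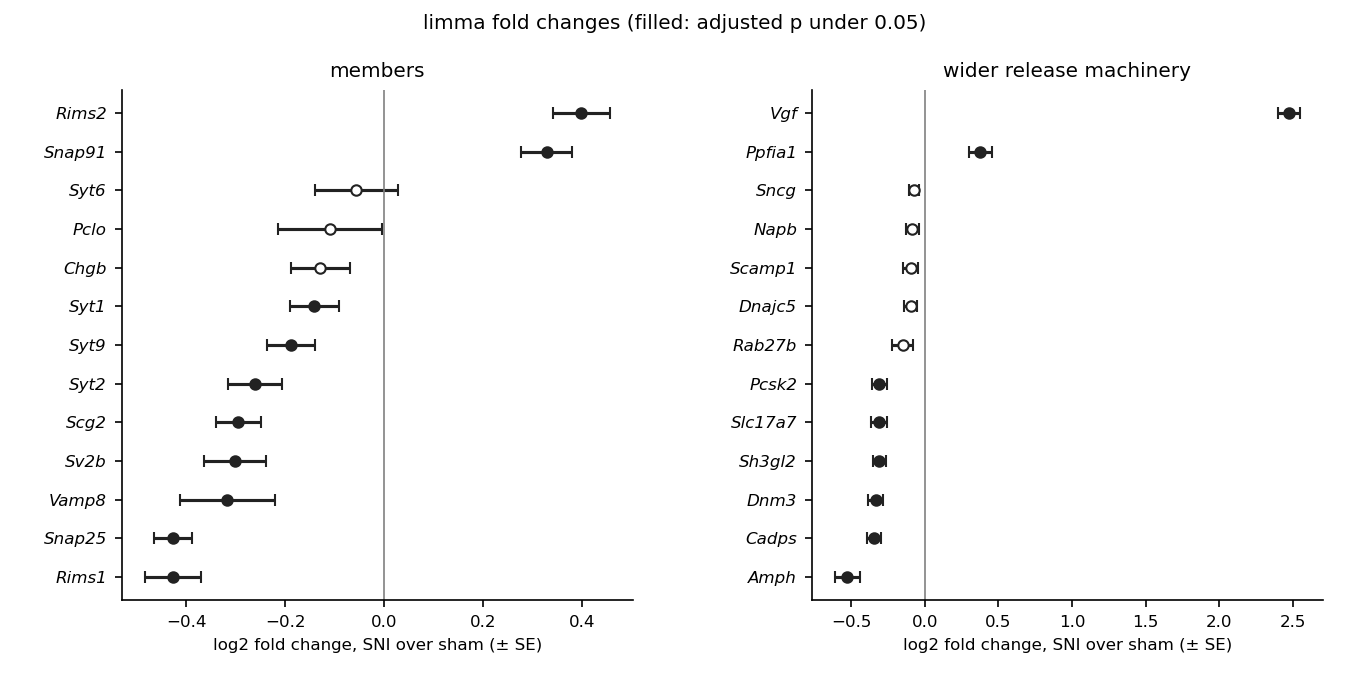
log2 fold change (SNI over sham) ± SE from limma for 13 of the 14 tested members and for the 13 tested genes of the wider release machinery; filled points have an adjusted p under 0.05. Among members Rims2 and Snap91 lie right of 0 and the 8 called lower lie between −0.43 and −0.14, while Vgf stands alone at 2.47 on the right of the second panel, whose axis is wider.

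Other genes of regulated secretion were taken from a list of 77 names, all with averages. Of 13 tested, 6 fell, 2 rose and 5 did not pass (limma), where 29.2% of all genes tested were called lower and 32.0% higher. The median log2 ratio of the 72 with a mean of at least 1 TPM was −0.06, beside 0.02 over all genes. Amph (amphiphysin), which bends membrane during vesicle retrieval, stood at 46.8 ± 1.49 TPM in SNI and 68.1 ± 8.60 TPM in sham (SD, n = 3 each), with a log2 fold change of −0.53 and a limma adjusted p of 0.00051. Cadps, which primes dense-core vesicles, stood at 107 ± 1.97 TPM in SNI and 135.9 ± 5.66 TPM in sham (log2 fold change −0.34, limma adjusted p = 0.00022). The endocytic proteins Dnm3 and Sh3gl2, the glutamate loader Slc17a7 and the prohormone convertase Pcsk2 had log2 fold changes of −0.33, −0.31, −0.31 and −0.31, each called. Ppfia1, a liprin, rose with a log2 fold change of 0.38 (limma adjusted p = 0.0027). Vgf, a granin-like cargo of dense-core vesicles, had 319.25, 288.07 and 321.56 TPM in SNI libraries, against 57.2, 49.1 and 59.08 TPM in sham libraries. It rose 5.62-fold (log2 fold change 2.47, SE 0.08, limma adjusted p = 1.0e-08) and was the 1 gene of the list in the authors' deposited table of higher genes. The most abundant genes of the list were Sncg (5464 ± 88.0 TPM in SNI and 5748 ± 148 TPM in sham, SD, n = 3 each, not called), Pcsk1n and Rab3a. Rab3a, the small GTPase that brings vesicles to Rims proteins, averaged 739 TPM in SNI and 1054 TPM in sham, and Pcsk1n averaged 1578 TPM in SNI and 1719 TPM in sham.

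Markers of myelinating Schwann cells were lower in SNI beside these genes, all 7 of them, with a sum of 5864 TPM in SNI and 10897 TPM in sham and none at 0. Their 4 members with values per library summed to between 4076 and 4220 TPM in SNI libraries and between 8117 and 8283 TPM in sham libraries. The 5 satellite glia markers summed to 8000 TPM in SNI and 8764 TPM in sham, although 4 of them had the higher average in SNI. Apoe, the 1 with the lower average in SNI, made up most of both sums, at 7526 TPM in SNI and 8348 TPM in sham. Without Apoe the sum was higher in SNI. The 4 fibroblast markers, all with the lower average in SNI, summed to 834 TPM in SNI and 904 TPM in sham. The 4 endothelial ones, 2 with the higher and 2 with the lower average in SNI, summed to 88.6 TPM in SNI and 95.0 TPM in sham. As TPM are shares of a library, the part of these differences in the members' values was not tested. The members under 1 TPM on average were Syt8, Syt10, Syt17, Cplx3, Cplx4 and Stx19, and for 4 of them both average read counts were below 10. Those 4 had group averages alone, and their differences were not tested.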

How the data were processed

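RNA sequencing of 6 ganglion libraries (3 SNI, 3 sham) was used as deposited. The authors deposited, per the file headers, TPM of 1637 genes in each library, average TPM and average read count per group, and lists of higher and lower genes. The read counts are estimated counts averaged by the authors. The sources used here do not name the counting tool, aligner, build, strand setting or test. Genes with close paralogs or overlapping neighbours may share reads. Columns named control were taken as sham. For 1628 genes with both kinds of value, the values per library averaged to the group averages within 0.001 TPM. That match compares columns of the same group name, so it cannot test whether control is sham. Tests used limma 3.58.1 (R 4.3.3) on log2(TPM + 1) with a mean of at least 1 TPM, an intensity trend and Benjamini-Hochberg adjustment over 1596 genes. Fold changes on that scale understate those of low genes. The fit was tested on simulated data. Ratios of averages have no test. Alternatives were other pseudocounts, filters, quantile normalization, no trend, a replicate block and leaving out each library. Some genes that the rule and lists hold enter the counts and sums and are not reported here by name. Members, roles and lists were chosen with earlier results of these data known. Named are members with library values, in the authors' lists, past 1.5-fold or among the 3 most abundant of a role, called or most abundant genes of the wider list, and further ones after their values were seen. Figures and tables used Python 3.11.15 with pandas 2.3.3, numpy 2.4.6, scipy 1.17.1 and matplotlib 3.10.9. Promoters were matched by gene ID to RefSeq (GRCr8); no coordinates of the files were used.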

Additional observations from a re-analysis of the deposited data

How the results depend on the processing

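The 9 lower and 2 higher member calls stayed within 1.5 times of those counts under every alternative run (7 to 10 lower, 2 higher), 13 of the 14 members kept their sign, and 9 of the 11 called kept their call, in all 13 alternatives each. The sign of Syt6, not called, turned without sham replicate 1, and its log2 fold change over the fits without 1 library ran from −0.12 to 0.032. Deviations of same-numbered libraries from their group means correlated at −0.09, −0.06 and 0.19, not all over 0.1, so the numbers were not taken as pairs. With a replicate block 498 genes were called higher and 447 lower, Syt1 lost its call (limma adjusted p = 0.054) and Chgb gained one (0.048). Quantile normalization took Syt1 to an adjusted p of 0.061 and the fit without a trend to 0.0501. Over all genes, leaving out 1 library gave 442 to 522 higher and 381 to 477 lower calls. From average read counts in place of TPM, 5 genes of the wider list were past 1.5-fold higher (3 from TPM) and 2 lower (1 from TPM), with Ptprn and Pcsk1 added above and Rph3al below. The cause was not tested. Members past 1.5-fold were the same genes under the alternatives run, except that Vamp1 was added by centring. Low read counts limit Vamp8, Stx11, Syt12, Stxbp2, Snap23 and the members under 1 TPM. Average read counts were 121 in SNI and 191 in sham for Syt12. They were 138 in SNI and 99.3 in sham for Stxbp2, and 207 in SNI and 138 in sham for Snap23.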

Other observations

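Several genes that work directly with the members had group averages alone and are named after their values were seen. Rph3a, a Rab3a effector, averaged 282 TPM in SNI and 401 TPM in sham, a proportion like that of Rab3a. Doc2a, a calcium sensor of spontaneous release, averaged 16.2 TPM in SNI and 25.1 TPM in sham. Nsf, the ATPase that takes used SNARE complexes apart, averaged 273 TPM in SNI and 338 TPM in sham. On the other side, Erc2, an active zone scaffold, averaged 17.1 TPM in SNI and 10.5 TPM in sham. The dense-core vesicle membrane protein Ptprn averaged 337 TPM in SNI and 225 TPM in sham, and the prohormone convertase Pcsk1 37.2 TPM in SNI and 24.9 TPM in sham. Among vesicular glutamate transporters, Slc17a6 averaged 67.2 TPM in SNI and 54.8 TPM in sham, while Slc17a7 was called lower.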
